A study of Mus musculus with 2 samples.

Results

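Fibroblast subcluster 0 of the infarcted mouse ventricle, labelled Pro-fibrotic Epi. (epicardial) on the study's map of the fibroblasts, was described across 15059 genes. Its members are all rows of the table deposited for this subcluster, and each gives the share of cells with a corrected count above 0 in either library. The tables state no cell numbers; the step of the shares gave 32 cells from the library labelled Yap/Wwtr1-depleted and 145 cells from the PostnMCM control library, 177 in all. By the same reckoning the fibroblast cluster held 485 cells, and 6020 cells lay in the 18 clusters with a deposited table. The libraries' fibroblasts lay mostly in different subclusters: subcluster 0 held 17.1% of the 187 fibroblasts labelled depleted (12.0% to 23.3%, exact 95% binomial interval) and 48.7% of the 298 control fibroblasts (42.9% to 54.5%), while subclusters 1 and 2, not analysed here, held 101 and 60. Each difference given is therefore between the cells that the clustering placed together and not between all fibroblasts of the libraries. The comparison asks which transcripts differ in these fibroblasts when Cre expressed from the Postn locus targets Yap and Wwtr1 after myocardial infarction (MI).

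Both groups were adult mice with PostnMCM, a tamoxifen-inducible MerCreMer recombinase driven by Postn, which is switched on in fibroblasts that become myofibroblasts after injury. All animals also carried the R26-eGFP reporter, underwent ligation of the left anterior descending coronary artery, and then ate chow holding tamoxifen citrate at 0.4 g/kg. Per the labels, ventricles were collected at day 6 (the study's text names a later day), dissociated by Langendorff perfusion, and sorted for viable cells. The second group was Yapfl/fl;Wwtr1fl/+;PostnMCM, with both alleles of Yap and 1 allele of Wwtr1 flanked by loxP sites, so that an intact Wwtr1 allele remained. Recombination depends on Postn being active in the cell. The inbred background of the groups and the number of hearts in each library are not given in the sources used here.

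Each group was 1 library, so cells are not replicates, genotype cannot be told apart from library, no test of genotype was made, and all values describe these 2 libraries. Intervals are exact 95% binomial intervals and cover counting error only. A cell was worth 3.12 percentage points among cells labelled depleted and 0.69 among control cells, and a count of 0 is given with the limit set by 3 cells, 9.38% and 2.07%, respectively, where the upper end of the exact interval is 10.9% and 2.5%. For a gene in 50% of cells, the interval ran from 31.9% to 68.1% in the library labelled depleted. By corrected counts, the means were 5337 and 5316 genes per cell in the library labelled depleted and the control library. The authors' correction adjusts each cell for its depth, so these means do not compare the breadth or depth of the libraries before it.

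The epicardium is the mesothelial sheet that covers the heart. Its cells carry keratins, mesothelin and uroplakins, and after infarction they are reactivated, express Wt1 and Aldh1a2, and can give rise to matrix-producing fibroblasts. Yap and TAZ, the product of Wwtr1, are transcriptional coactivators that bind TEAD factors and are held in the cytoplasm by the Hippo kinases. In fibroblasts they are known for driving matrix and cytoskeletal genes.

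The epicardial name was set against 30 epicardial genes. Of these, 29 reached 25% of cells in at least 1 library, and an average cell held a count of 20.04 of the 30 in the control library and 21.66 in the library labelled depleted. Wt1, the transcription factor of the epicardium, was detected in 97.2% of control cells and 96.9% of cells labelled depleted. Dmkn was at 97.2% and 96.9%, Upk3b at 93.8% and 90.6%, Lrrn4 at 90.3% and 90.6%, and Aldh1a2, the enzyme that makes retinoic acid, at 84.1% and 84.4%. In fibroblast subcluster 5, control cells held 9.56 of the 30 genes at a mean of 4957 genes per cell, with Lrrn4 at 13%, Upk3b at 21.7% and Bnc1 at 0%. Subclusters 3 and 4 held 18.9 and 19.92 of the 30 in control cells, so the epicardial genes did not set subcluster 0 apart from them. Tcf21, which marks resident fibroblasts, was at 2.1% of control cells and at 0 of 32 cells labelled depleted. Because these cells were clustered on such genes, the shares describe the subcluster and test nothing.

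**Figure D1:**
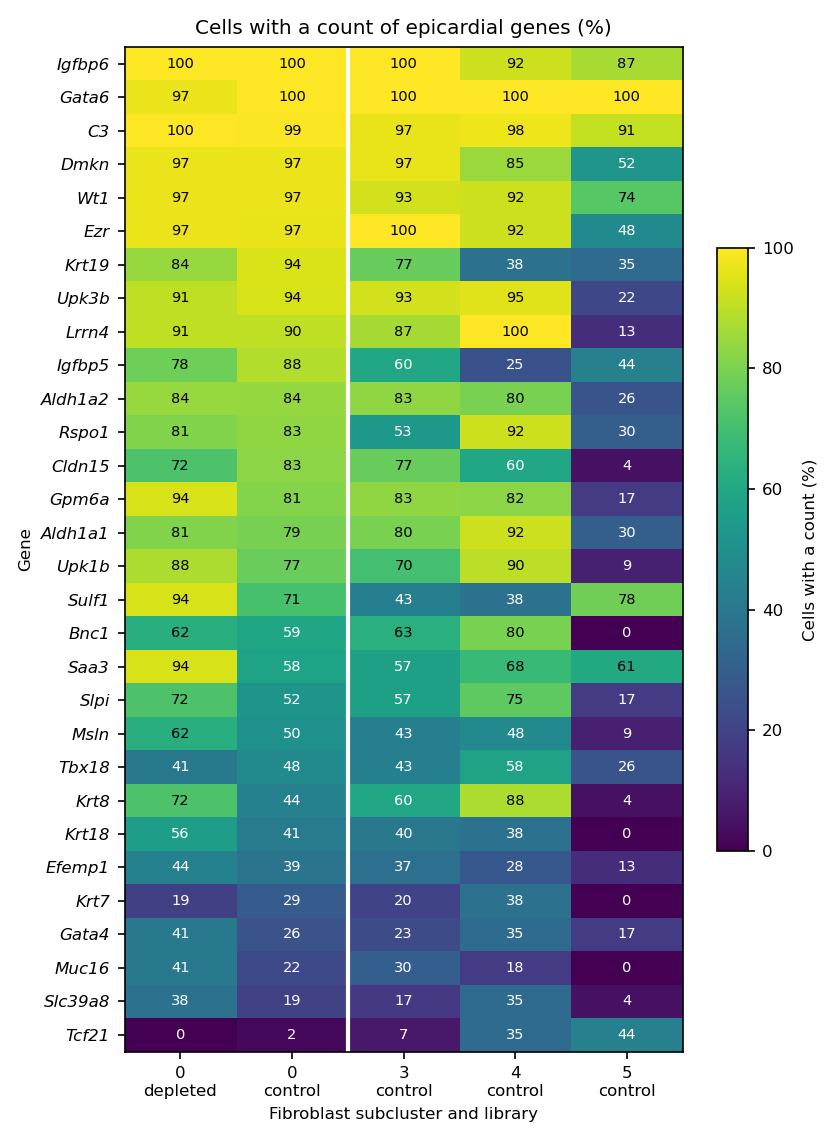
Percent of cells with a count above 0 for 30 epicardial genes (rows) in both libraries of subcluster 0 and in the control library of subclusters 3, 4 and 5 (columns; colour and number both give the percent). Subcluster 5 is lower than subcluster 0 for most genes, for example 13% for Lrrn4 against 90.3% in control cells of subcluster 0.

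Collagen transcripts were in every cell of subcluster 0. Col1a1, Col1a2, Col3a1 and Col5a2, the main fibrillar collagen chains of scar, had a count in all 177 cells, and so did the small proteoglycan Dcn, fibronectin (Fn1) and the collagen chaperone Serpinh1. The IGF-binding proteins Igfbp6 and Igfbp7 were likewise at 100% in both libraries, and Igfbp5 was at 88.3% of control cells. By contrast, Postn, a matricellular protein of activated myofibroblasts and the driver of the Cre, was detected in 25.5% of control cells (18.6% to 33.4%) and 28.1% of cells labelled depleted (13.7% to 46.7%). Postn was at 87.0% and 100% in subcluster 5. Acta2, the smooth muscle actin that defines contractile myofibroblasts, was at 31.0% of control cells. The study's text ties the word pro-fibrotic in this subcluster to Igfbp3, Igfbp5 and Igfbp6. Col1a1, Col1a2 and Col3a1 were also at 100% in both libraries of subclusters 3, 4 and 5, so they did not set subcluster 0 apart. Postn and Acta2 were in a minority of its control cells.

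The targeted transcripts were not lower in the library labelled depleted. Yap1 was detected in 56.2% of its 32 cells (37.7% to 73.6%) and in 46.2% of the 145 control cells (37.9% to 54.7%). Wwtr1 was at 90.6% (75% to 98.0%) and 81.4% (74.1% to 87.4%). For each gene the intervals overlapped. These 3′ reads come from the ends of transcripts, and whether the floxed exons lie there is not given in the sources used here, so the shares do not check the deletion. The library is therefore called by its label throughout.

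Of the 15059 genes, 8490 reached 25% of cells in the library labelled depleted, the control library or both and are called described here: 7297 passed in both libraries, 745 in the library labelled depleted alone and 448 in the control library alone. A gene that passed through a single library was bound to be higher there, so counts and medians over described members of a list describe those members and support no direction; for several lists the values over all their genes in the table are given too (over all 15059 genes, 7088 were higher and 7340 lower). The median difference, labelled depleted minus control, was 0.3 percentage points, with quartiles of -5.4 and 6.8. A total of 96 genes were at least 25 points higher in the library labelled depleted (1.13%), which is 8 of its 32 cells, and 76 genes were at least 25 points lower (0.895%). Of these, 41 of the 96 and 31 of the 76 had passed through a single library. Without the marker genes of other cell types the counts were 96 and 66. Just inside the limit lay P3h3 at 84.4% and 59.3% (labelled depleted and control) and Wdr46 at 15.6% and 40.7%, and just outside it Brd8 at 75% and 50.3% and Ergic1 at 65.6% and 90.3%. Many transcripts were at full detection: 394 genes were at 100% in both libraries, and 1154 were at 90% or more in both.

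**Figure D2:**
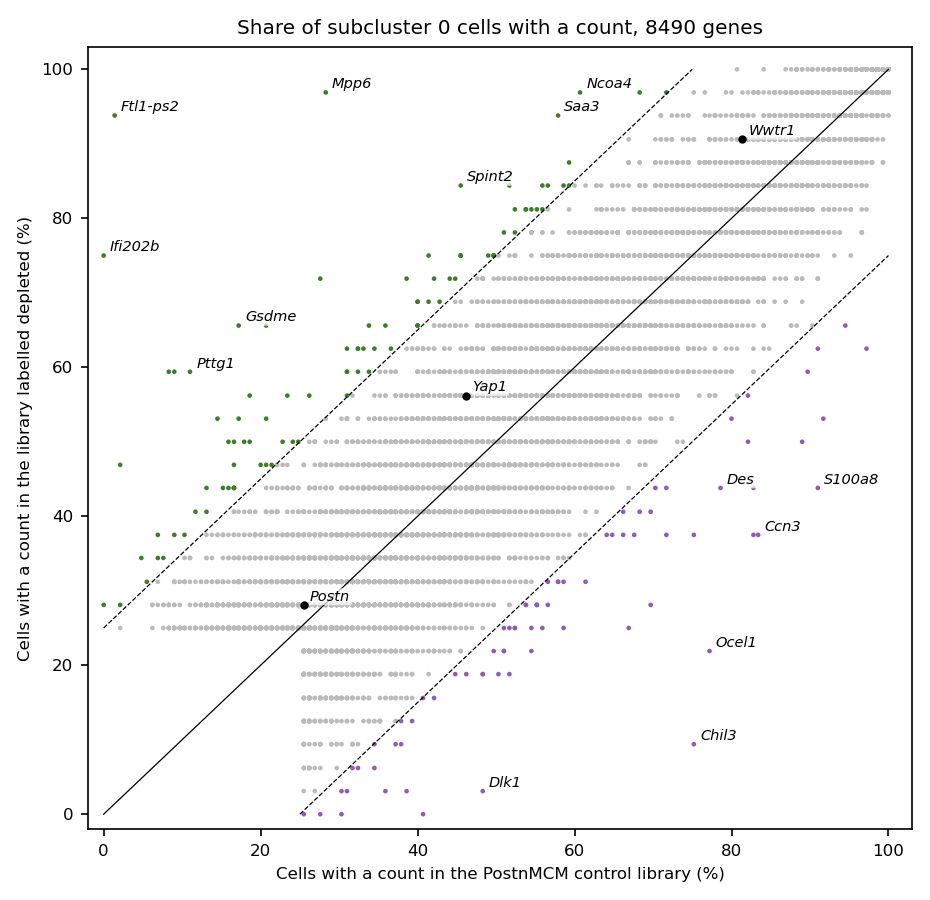
Percent of subcluster 0 cells with a count above 0 in the control library (horizontal axis) and in the library labelled depleted (vertical axis), 1 point per gene, for the 8490 described genes. The solid line marks equal shares and the dashed lines a difference of 25 points; 96 genes lie on or above the upper dashed line (green) and 76 on or below the lower one (purple), while Yap1, Wwtr1 and Postn (black) lie near the solid line.

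The largest differences upward were in genes outside the matrix programme. Ftl1-ps2, a processed pseudogene of the ferritin light chain on chromosome 10 (GRCm39, chr10:130428026-130428574), had a count in 30 of 32 cells labelled depleted (93.8%, 79.2% to 99.2%) and in 2 of 145 control cells (1.4%, 0.2% to 4.9%). Its parent gene Ftl1 was at 100% in both libraries, and reads of near-identical copies can be split between them by counting, so this value is uncertain. The processed pseudogenes Rpl34-ps1 (65.6% and 20.7%) and Gm7429 (59.4% and 9.0%) carry the same caution. As a class, 39 pseudogenes were described, with a median difference of 6.3 points, 3 of them at least 25 points higher and 2 at least 25 points lower, against 1.13% and 0.895% of all described genes.

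Ifi202b, an interferon-inducible gene of the IFI200 family of DNA-binding proteins on chromosome 1 (GRCm39, chr1:173790134-173810414), was detected in 24 of 32 cells labelled depleted (75%, 56.6% to 88.5%) and in 0 of 145 control cells, which allows a share of up to 2.07%. Ifi202b was also listed higher in 5 of the other 17 cluster tables, with 0% in control cells of each, and Ftl1-ps2 was listed higher in all 17, with at most 5.2% in control cells. These differences were therefore not particular to fibroblasts of subcluster 0.

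Mpp6, a membrane-associated scaffold protein that the current annotation calls Pals2, was in 96.9% of cells labelled depleted (83.8% to 99.9%) and in 28.3% of control cells (21.1% to 36.3%). Gsdme, a gasdermin that forms membrane pores once caspases cleave it, was at 65.6% (46.8% to 81.4%) and 17.2% (11.5% to 24.4%). Both genes lie on chromosome 6 on opposite strands (GRCm39, chr6:50087139-50185549 and chr6:50165868-50240842), and their annotated bodies overlap by 19682 bases. The study counted reads with Cell Ranger at its default settings, which keep reads in the sense direction of a gene, and whether any reads were shared between them was not tested. In 2 other cluster tables Gsdme was listed lower in the library labelled depleted.

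Among genes of known function, Pttg1, or securin, which guards sister chromatids until anaphase, was at 59.4% (40.6% to 76.3%) against 11% (6.4% to 17.3%). Spint2, an inhibitor of serine proteases at epithelial surfaces, was at 84.4% and 45.5%, and Nr1d1, the heme-sensing repressor REV-ERBα of the circadian clock, was at 56.2% and 18.6%. Ncoa4, the receptor that delivers ferritin to autophagy, was at 96.9% and 60.7%. Saa3, an acute-phase apolipoprotein, was at 93.8% and 57.9%. Oxnad1 was at 53.1% and 14.5%. The unnamed loci Gm26782 (59.4% and 8.3%), Gm51963 (46.9% and 2.1%) and LOC118568566 (71.9% and 27.6%) completed the 15 genes taken as having the largest positive difference. Ccnd1, a cyclin (53.1% and 17.2%), tied with Saa3 at 35.9 points in the deposited digits, and Saa3 was taken for its larger share.

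Downward, the list was led by Chil3, a chitinase-like secreted protein best known from alternatively activated macrophages. It was detected in 3 of 32 cells labelled depleted (9.4%, 2.0% to 25%) and in 75.2% of control cells (67.3% to 82.0%). Ocel1, which holds an occludin-like domain, was at 21.9% (9.3% to 40%) and 77.2% (69.5% to 83.8%). Dlk1, a membrane protein related to Notch ligands that marks immature stromal cells, was in 1 of 32 cells labelled depleted (3.1%) and in 48.3% of control cells. Tmem221 was in none of the 32 cells, which allows up to 9.38%, and in 40.7% of control cells. Slc7a8, a transporter of neutral amino acids, was at 28.1% and 69.7%, Spp1, or osteopontin, at 25% and 66.9%, and Des, the muscle intermediate filament desmin, at 43.8% and 78.6%. The other 8 of the 15 comprised Ccn3, described with its family below, and 7 genes of myeloid or red blood cells.

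**Figure D3:**
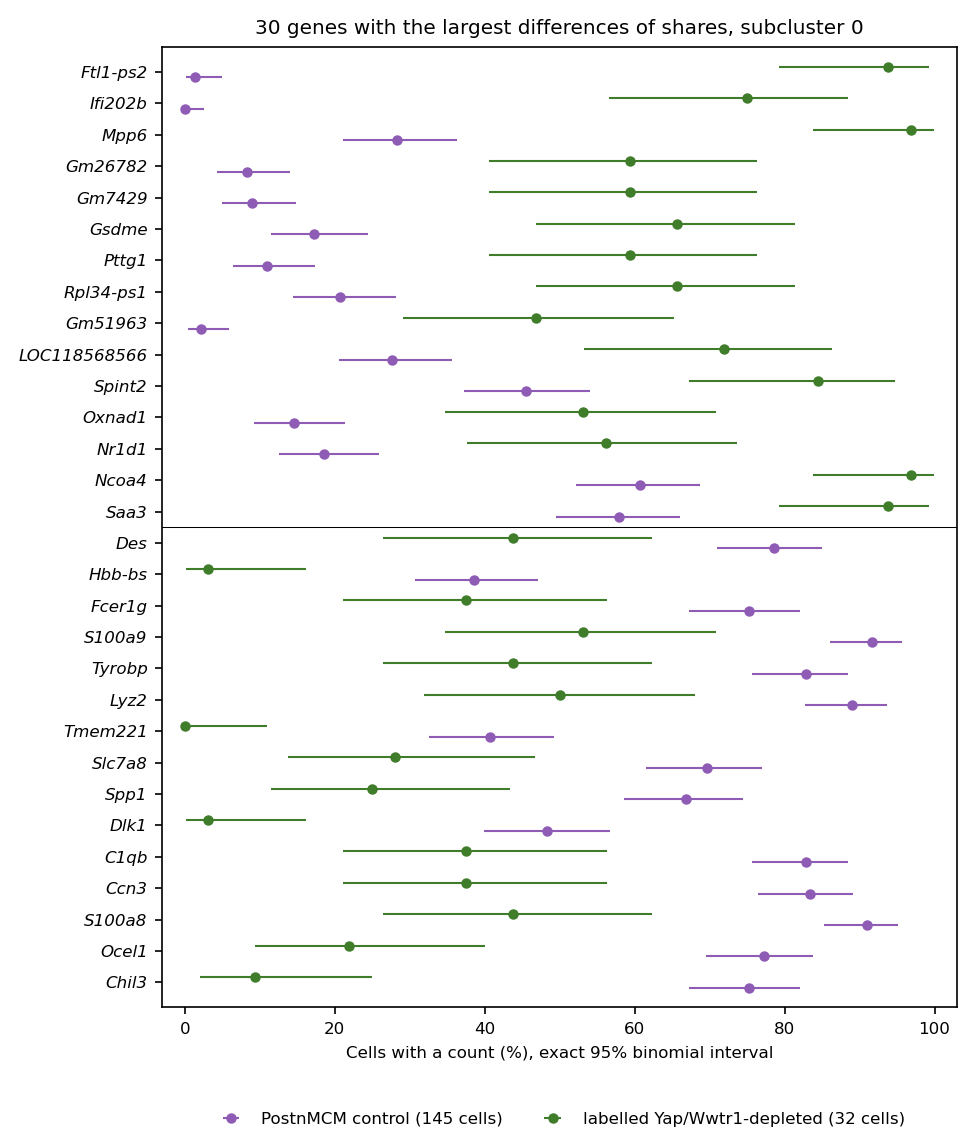
Percent of subcluster 0 cells with a count above 0 for the 15 genes with the largest positive difference (Saa3 taken over Ccnd1, with which it ties) and the 15 with the largest negative; points give the share in the control library (purple, 145 cells) and in the library labelled depleted (green, 32 cells), and bars the exact 95% binomial interval. Ftl1-ps2 stands at 93.8% against 1.4% at the top, and Chil3 at 9.4% against 75.2% at the bottom.

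Those 7 were S100a8, S100a9, Lyz2, Tyrobp, Fcer1g, C1qb and Hbb-bs. S100a8 and S100a9, the subunits of neutrophil calprotectin, were in 91.0% and 91.7% of control cells and in 43.8% and 53.1% of cells labelled depleted. The macrophage genes Lyz2 (lysozyme), Tyrobp and Fcer1g (signalling adaptors) and C1qb (a complement subunit) were at 75.2% to 89.0% of control cells and at 37.5% to 50% of cells labelled depleted. Apart from the globin gene Hbb-bs, these are chiefly transcripts of leukocytes. Over the whole lists, 3 of 5 described neutrophil genes and 4 of 10 described macrophage and monocyte genes were at least 25 points lower, against 0.895% of all described genes, with medians of -32.8 and -21.4 points. Over all list genes in the table, 10 of 14 neutrophil genes and 15 of 16 macrophage and monocyte genes were lower, with medians of -11.9 and -12.8 points. An average control cell held 3.9 of the 14 neutrophil genes and 7.26 of the 16 macrophage genes, against 1.97 and 4.56 in the library labelled depleted.

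Not all immune genes followed. The leukocyte surface gene Ptprc (CD45) was at 34.4% and 35.2% (labelled depleted and control), Adgre1 (F4/80) at 15.6% and 17.9%, and Cd14 at 50% and 47.6%. No T, NK or B cell marker was described: an average cell held 0.84 and 0.65 of 11 T and NK genes and 0.28 and 0.19 of 5 B cell genes in the library labelled depleted and the control library. The erythroid genes Hbb-bs (3.1% and 38.6%) and Hba-a1 (0% and 27.6%), which encode globin chains, were lower in the library labelled depleted. In the cardiomyocyte list, 9 of 11 genes were at 0 of 32 cells labelled depleted, and none exceeded 9.0% of control cells. Of the endothelial genes, Pecam1, Cdh5 and Vwf were at 4.8% or less in both libraries, although Fabp4 (78.1% and 74.5%) and Kdr (50% and 38.6%) were common.

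Beyond the fibroblasts each of these genes was listed lower in more of the other cluster tables than higher. S100a9 was listed lower in 12 other cluster tables and higher in 0, Chil3 lower in 13 and higher in 1, and S100a8 lower in 8 and higher in 2. Lyz2 was lower in 6 and higher in 4 of 13 tables, and C1qb lower in 3 and higher in 1. Tyrobp was lower in 5 of 6 and Fcer1g in 1 of 4, with 0 higher for both and equal shares in the rest. Hbb-bs was lower in all 3 that list it. Outside the myeloid genes, Ocel1 was listed lower in 10 and higher in 0. Spp1 was listed lower in 9 and higher in 0. Free RNA and doublets were not measured by these tables, and their part in the myeloid and erythroid differences was not tested. Genes of these lists that also stand in functional groups, such as C1qa, C1qb, C1qc, Wfdc17 and Spp1, carry the same limit.

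The subclusters share both libraries, so their values for the named genes are set side by side without counting them as separate evidence. Ftl1-ps2, Ifi202b, Mpp6, Gm7429, Gm51963, Rpl34-ps1, Gsdme and Oxnad1 were at least 25 points higher in the library labelled depleted in each of subclusters 0, 3, 4 and 5. Chil3, Ocel1, S100a9, C1qb, Ccn3, Dlk1, Gpc3 and Hbb-bs were at least 25 points lower in each. Gpc3, a glypican of the cell surface, was named after its values were seen. Other genes differed between the subclusters in size or direction, without a test of that difference. Spint2 was 38.9 points higher here and at 39.1% and 30% in subcluster 3, 60% and 70% in subcluster 4, and 9.5% and 0% in subcluster 5. Slc7a8 had a difference of -41.6 points here, and was at 43.5% and 46.7% in subcluster 3, 30% and 57.5% in subcluster 4, and 0% and 17.4% in subcluster 5. Subcluster 4 rested on 10 cells labelled depleted, of which each is worth 10.0 points.

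**Figure D4:**
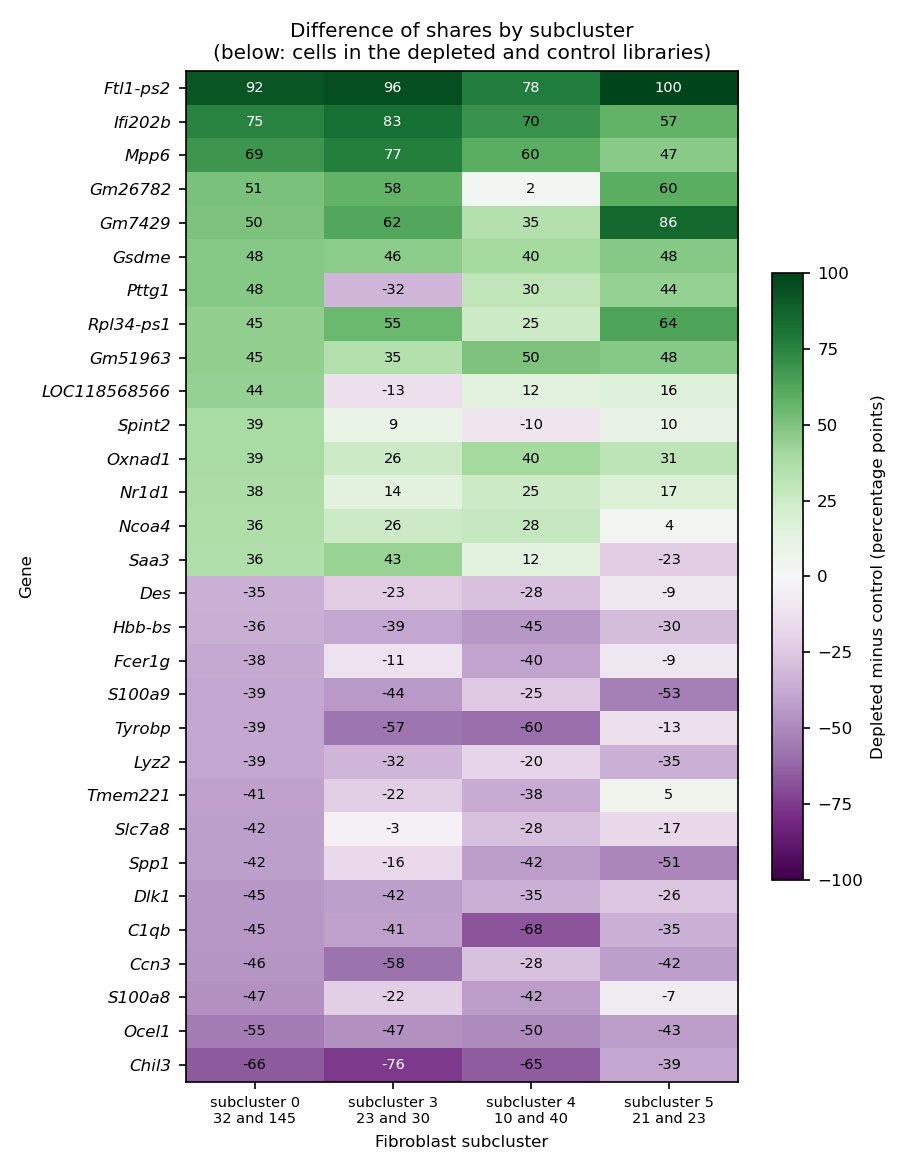
Difference of the share of cells with a count, labelled depleted minus control, in percentage points (colour and number), for the 15 genes taken in each direction for their difference in subcluster 0 (rows) in subclusters 0, 3, 4 and 5 (columns, with the cells of each library below). Ftl1-ps2, Ifi202b and Chil3 have 1 direction in all 4 columns, while Pttg1 is 48.4 points higher in subcluster 0 and stands at -32.4 points in subcluster 3.

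The Hippo pathway itself was close to level. Of 24 genes, 21 were described, 14 of them higher and 7 lower, with a median of 4.3 points, and none differed by 25 points. Of the 21, 3 passed through the library labelled depleted alone; over the 18 that passed in both libraries 11 were higher and 7 lower, with a median of 2.8 points. Tead1, a TEAD factor, was at 93.8% of cells labelled depleted (79.2% to 99.2%) and 72.4% of control cells (64.4% to 79.5%), and Tead2 at 37.5% and 15.2%. Frmd6, an upstream scaffold, was at 75% and 52.4%. The kinases Lats1 and Lats2 were at 59.4% each in the library labelled depleted and at 48.3% and 56.6% in the control library.

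A published signature of 22 YAP/TAZ target genes gave no member past the limit. Of the 14 described members 9 were higher and 4 lower, with a median of 3.0 points and a range of -6.0 to 23.6. Of all 21 in the table, 11 were higher and 9 lower, with a median of 1.6 points. Tgfb2, a ligand of the TGF-beta family, was at 71.9% (53.3% to 86.3%) and 48.3% (39.9% to 56.7%), Crim1 at 53.1% and 37.9%, and Amotl2 at 43.8% and 37.2%. Ankrd1, a classic target in stretched cells, was at 0% and 2.1%.

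The TEAD core GGAATG (on either strand, also read as CATTCC) was searched in RefSeq promoters of GRCm38.p6, from 250 bases before to 50 bases after each start. It was present in 16.6% of 27025 promoters, in 14.1% of those of described genes, and in 6 of the 10 described targets with a promoter entry. Windows of 30 bases are shown for 5 of the 6, with the core in capitals, because targets that carry these letters lay on both sides of 0: Axl was at 87.5% and 92.4% and Ptpn14 at 65.6% and 57.2%. The windows lie, in the order shown, at chr3:145650071-145650100 (minus strand), chr9:102717727-102717756 (plus strand), chr17:78200157-78200186 (plus strand), chr1:189728110-189728139 (plus strand) and chr7:25788949-25788978 (minus strand).
Ccn1: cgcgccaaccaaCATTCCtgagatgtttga
Amotl2: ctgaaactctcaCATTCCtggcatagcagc
Crim1: agggcgggggggGGAATGaggtaggatggg
Ptpn14: cctccccggacgCATTCCtggcccgcccag
Axl: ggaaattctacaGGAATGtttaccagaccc

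The CCN family comprises secreted matricellular proteins. Ccn3 (GRCm39, chr15:54609012-54620154), a ligand of integrins and Notch, was in 12 of 32 cells labelled depleted (37.5%, 21.1% to 56.3%) and in 121 of 145 control cells (83.4%, 76.4% to 89.1%), a difference of -45.9 points. In the control library Ccn3 was similarly frequent in subcluster 3 (80.0%), lower in subcluster 5 (60.9%) and lowest in subcluster 4 (27.5%), and the library labelled depleted had 21.7%, 19.0% and 0% there. Ccn3 was not listed in the other 17 cluster tables, which hold only genes past the authors' limits on detection and size. Ccn1 and Ccn2, the best known YAP/TAZ targets of the family, were at 25% and 23.4% and at 21.9% and 11.7% (labelled depleted and control). Ccn4 was at 21.9% and 25.5%, and Ccn5 was in no cell of either library, although it was at 76.2% and 43.5% in subcluster 5. With control shares this low, a share lower by as many points as Ccn3's could not have been seen in Ccn1, Ccn2 or Ccn4.

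Of the structural matrix genes, the 7 described fibrillar collagens had a median of 0.0 points, with 4 at 100% in both libraries, and the widest gap was in Col5a3 (59.4% and 40%). At full detection a share cannot show a difference of level. Basement membrane genes had a median of 5.3 points over 15 genes, 12 higher and 3 lower (14 and 4 over all 18 in the table, median 4.7), with Col4a2 at 93.8% and 73.8%. Among collagen-processing enzymes, Lox, which crosslinks collagen, was at 87.5% and 70.3%, Plod2, which hydroxylates the crosslinking lysines, at 100% and 84.1%, and P4ha3 at 37.5% and 13.8%, whereas P4ha2 was at 28.1% and 45.5%. The gelatinase Mmp2 was at 87.5% and 68.3%. None of these 3 lists or the proteases had a member past 25 points.

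Among 23 described matricellular and elastic fibre genes, Spp1 alone passed the limit, downward, against 0.895% of all described genes, and it is also a macrophage transcript. Of the 23, 10 were higher and 9 lower, with a median of 0.0 points. Thbs1 was at 62.5% and 39.3%, higher in the library labelled depleted. Mfap2, a microfibril protein, was at 78.1% and 96.6%, and elastin (Eln) at 87.5% and 99.3%, both lower there. Small proteoglycans had a median of -2.0 points over 6 genes. The contractile list split: Acta2 was at 59.4% (40.6% to 76.3%) and 31.0% (23.6% to 39.2%), and Tagln at 50% and 32.4%, while Des was lower and the ubiquitous Vim, Myl6 and Tpm1 were at 100% in both. Of the 17 described members, 1 was past the limit in each direction, against 1.13% (higher) and 0.895% (lower) of all described genes.

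Fibroblast state markers differed in a few members. Pdgfra, the receptor that marks cardiac fibroblasts, was at 71.9% (53.3% to 86.3%) and 38.6% (30.7% to 47.1%), the 1 of 11 described resting fibroblast genes past 25 points, against 1.13% of all described genes upward, while Clec3b was at 81.2% and 95.2% and Cd34 at 100% and 99.3%. Prg4, or lubricin, was at 50% and 18.6% in a matrifibrocyte list whose 7 described members had a median of 11.2 points; 3 of the 7, Prg4 among them, passed through the library labelled depleted alone, and the median was 4.0 over all 12 in the table and 4.1 with the filter set on the share over all cells. Comp and Cilp, which define matrifibrocytes of mature scar, were at 3.1% or less in both libraries. Of the epicardial genes, Krt8 (71.9% and 44.1%) and Saa3 passed the limit upward and none downward, against 1.13% of all described genes upward. Sulf1 (93.8% and 71.0%), Slpi (71.9% and 51.7%) and Muc16 (40.6% and 22.1%) were next in size, and the list's median was 0.7 points.

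In the IGF axis no gene passed the limit. Igf1, the growth factor, was at 81.2% (63.6% to 92.8%) and 63.4% (55.1% to 71.3%). Pappa, a protease that frees IGF from its binding proteins, was at 71.9% and 52.4%. The binding protein Igfbp5 was at 78.1% and 88.3%, and Igfbp3 at 53.1% and 57.9%. TGF-beta pathway genes had a median of 5.8 points over 18 genes, 12 higher and 6 lower, with Tgfb1 at 37.5% and 50.3% and the feedback repressor Skil at 62.5% and 40%. In the Wnt list the median was -2.2 points over 9 genes, and Wnt2 was at 28.1% and 47.6%.

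**Figure D5:**
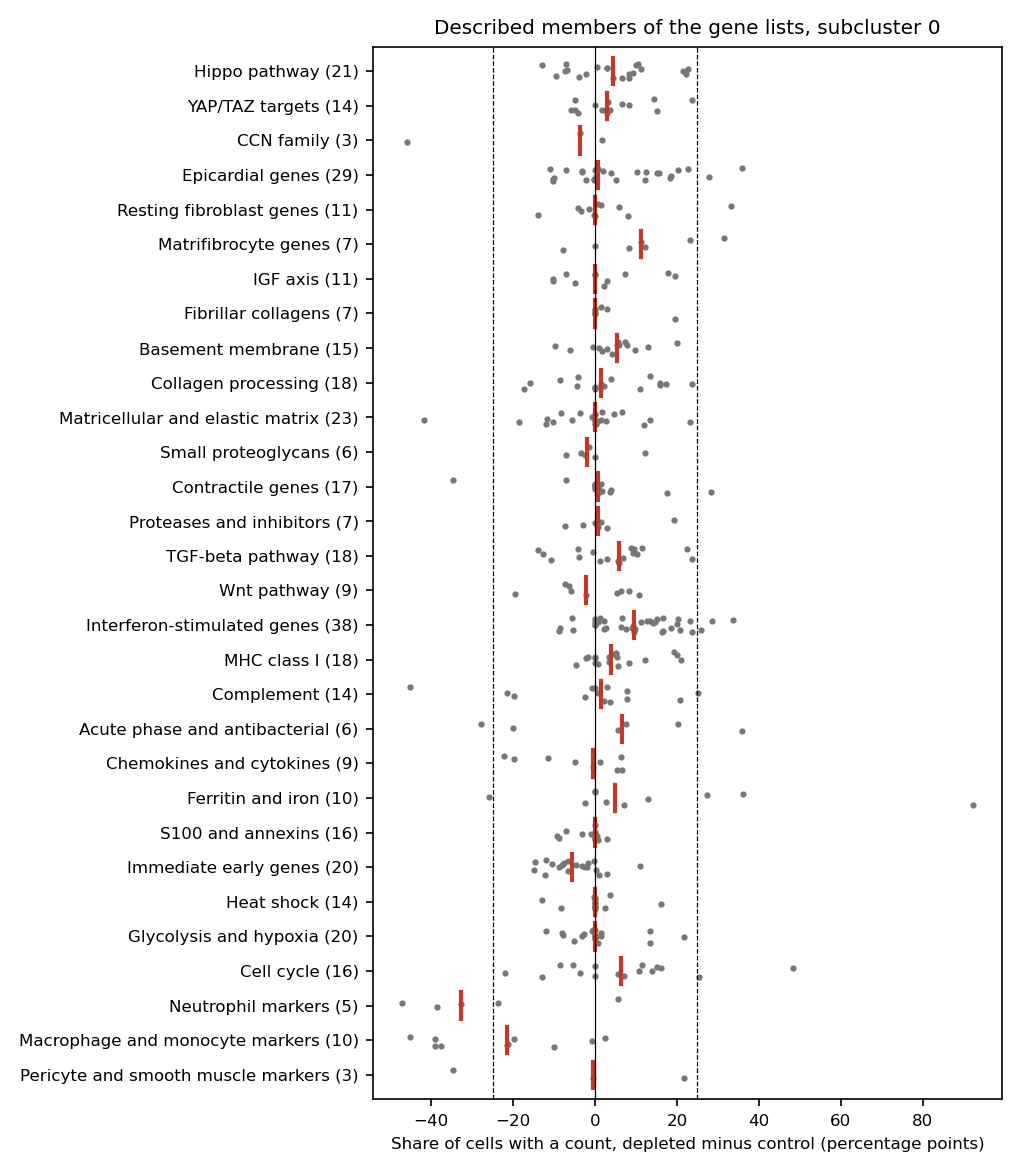
Difference of shares, labelled depleted minus control, in percentage points, for each described member (grey points) of the gene lists with at least 3 described members (number in brackets); red bars are medians, the solid line is 0 and dashed lines are 25 points. Interferon-stimulated genes lie mostly right of 0 (median 9.6), immediate early genes mostly left (median -5.6), and neutrophil and macrophage markers furthest left (medians -32.8 and -21.4).

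Most interferon-stimulated genes were more widely detected in the library labelled depleted. Of the 44 genes, 33 were higher, 8 lower and 3 equal, with a median of 9.2 points beside 0.0 over all genes in the table. Of these, 38 were described (30 higher, 5 lower, median 9.6), 5 of them through the library labelled depleted alone, and an average cell held 26.06 of the 44 against 22.1 in the control library. Trim30a, an interferon-induced restraint on inflammasome signalling, was at 75% (56.6% to 88.5%) and 41.4% (33.3% to 49.8%). Irf7, the transcription factor that amplifies type I interferon, was at 96.9% (83.8% to 99.9%) and 68.3% (60% to 75.7%). Oas2, a sensor of double-stranded RNA that passed through the library labelled depleted alone, was at 50% and 24.1%. These 3 of 38 were at least 25 points higher, against 1.13% of all described genes, and none of the 38 was at least 25 points lower. Irgm1 (71.9% and 48.3%), Gbp3 (62.5% and 39.3%) and Ifit1 (53.1% and 32.4%) followed, whereas Irf1 (37.5% and 46.2%) and Oasl1 (28.1% and 36.6%) were lower. Ifitm2, Ifitm3 and Bst2 were at 100% in both libraries.

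Promoters of these genes were searched for the interferon-stimulated response element core GAAANNGAAA (on either strand, also read as TTTCNNTTTC), which STAT and IRF complexes bind. Of 30 described members with an entry, 16 held it (53.3%), against 3.7% of the promoters of described genes and 4.0% of all. Windows of 4 genes among the 6 with the largest differences are shown because most of the group lay in 1 direction, with the core in capitals. They lie on GRCm38.p6 at chr7:104465210-104465239 (minus strand), chr11:48871425-48871454 (minus strand), chr3:142559989-142560018 (plus strand) and chr19:34640794-34640823 (plus strand).
Trim30a: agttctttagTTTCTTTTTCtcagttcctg
Irgm1: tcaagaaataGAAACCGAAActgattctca
Gbp3: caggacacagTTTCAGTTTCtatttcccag
Ifit1: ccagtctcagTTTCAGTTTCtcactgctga
Members without large differences held the core too, such as Igtp (40.6% and 46.2%) and Bst2. A match is a run of letters and not a measured binding site.

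MHC class I genes and their peptide supply had a median of 4.0 points over 18 genes, 12 higher and 3 lower, with none past 25 points. The immunoproteasome subunit Psmb9 was at 78.1% and 57.2%, the non-classical H2-T23 at 93.8% and 74.5%, and H2-Q6, 1 of a family of near-identical genes whose reads can be split between copies, at 40.6% and 20.7%. B2m and H2-D1 were at 100% in both. Complement genes had a median of 1.4 points over 14 genes: Cd55, which speeds decay of the convertases, was at 93.8% and 73.1%, while C1qa, C1qb and C1qc were lower together with the macrophage genes.

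In iron handling, 4 of 10 described genes differed by at least 25 points, 3 higher and 1 lower, against 1.13% and 0.895% of all described genes. Of the 3, 1 is the uncertain Ftl1-ps2, which passed the filter through the library labelled depleted alone. Hmox1, the gene that was lower, passed through the control library alone. Over all 13 in the table, 7 were higher and 4 lower, with a median of 1.5 points. Ftl1-ps2, Ncoa4 and Cp, the ferroxidase ceruloplasmin (81.2% and 53.8%), were at least 25 points higher. Hmox1, which breaks down heme and is abundant in macrophages, was at 18.8% (7.2% to 36.4%) and 44.8% (36.6% to 53.3%). The ferritin chains Fth1 and Ftl1 were in every cell.

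Chemokines had a median of -0.4 points over 9 described genes, with none past the limit. Cxcl13, a B cell attractant, was at 9.4% and 31.7%, Cxcl12 at 37.5% and 31.0%, and the alarmin Il33 at 84.4% and 84.8%. Of 6 described acute-phase genes, Saa3 was higher and Wfdc17 (43.8% and 71.7%), a myeloid protein, lower past the limit. This stands against 1.13% (higher) and 0.895% (lower) of all described genes. The 6 had a median of 6.6 points, 4 higher and 2 lower. Over all 9 in the table, 5 were higher and 4 lower, with a median of 4.8 points. Hp, haptoglobin, was at 6.2% and 26.2%.

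Most immediate early genes were slightly lower in the library labelled depleted: of all 22 in the table, 17 were lower and 5 higher, with a median of -4.6 points. Of the 20 described, 16 were lower and 4 higher, with a median of -5.6 points and none past 25 points. Klf6 was at 78.1% (60% to 90.7%) and 93.1% (87.7% to 96.6%), and Myc at 15.6% and 30.3%, while Fos was at 93.8% and 95.9%. Heat shock, glycolysis and S100 and annexin lists each had a median of 0.0 points and no member past the limit.

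Cell cycle genes were mixed. Of 29 genes 16 were described, 9 higher and 5 lower, with a median of 6.4 points that became 0 with the filter set on the share over all cells; 5 of the 16, Pttg1 among them, passed through the library labelled depleted alone. Over all 29 genes 16 were higher and 10 lower, with a median of 4.1 points. Pttg1 and Stmn1, a destabiliser of microtubules (75% and 49.7%), were at least 25 points higher, against 1.13% of all described genes. Mcm6, a subunit of the replicative helicase, was at 31.2% (16.1% to 50%) and 53.1% (44.6% to 61.4%). The proliferation markers Mki67 (15.6% and 10.3%) and Top2a (18.8% and 11%) were rare in both libraries.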

How the data were processed

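Interstitial cells of infarcted mouse ventricles were profiled by 10x 3′ single-cell RNA sequencing in 2 libraries, 1 per genotype. Per the labels and methods, the authors aligned reads with Cell Ranger 6.1.1 to GRCm39 with reporter sequences added, aggregated the libraries without depth normalization, and used Seurat to remove rarely detected genes and low-quality cells, to normalize with SCTransform regressing out the mitochondrial share, to cluster, and to recluster the fibroblasts into 6 subclusters. No doublet caller is named, and doublets were not removed here. Cell barcodes and counts per cell were not analysed here, so depth per cell in reads is unknown.

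The deposited values used are fractions of cells with a corrected count above 0, rounded by the authors to 3 decimals and printed here as percents. The deposited tables also hold the authors' average log2 fold changes, p-values and adjusted p-values over cells, which were not used. The column pair was assigned to genotypes from the order given in the study's code.

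Cells per library were inferred as the smallest number whose multiples give every share, tested on simulated data. Python 3.11.15, numpy 2.4.6, pandas 2.3.3, scipy 1.17.1 and matplotlib 3.10.9 were used. Genes reaching 25% of cells in 1 or both libraries were described, and 25 points was taken as a large difference. Named were Yap1, Wwtr1, Postn and the CCN genes, the 15 genes with the largest difference in each direction (ties by the larger share), and up to 6 described genes of each of 36 lists (or any in at least 75% of cells of both libraries). Other list genes, named for level or low shares, and the genes beside the limit were chosen after their values were seen. The members and lists were chosen with earlier results of these data known. Positions came from GENCODE M39, where 189 of 191 named genes matched. Alternatives were a limit of 40 points, 2 other detection filters, an odds ratio, centring on the median, and leaving out pseudogenes and ribosomal protein genes or, added after seeing the data, markers of other cell types.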

Additional observations from a re-analysis of the deposited data

Results flagged for a closer look

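Pttg1, which encodes securin, differed in opposite directions between subclusters of the same libraries. In subcluster 0 it was detected in 59.4% of 32 cells labelled depleted and 11% of 145 control cells, a difference of 48.4 points, and in subcluster 3, whose cell cycle genes were common, it was detected in 60.9% of 23 cells and 93.3% of 30 cells, a difference of -32.4 points. It was at 40% and 10.0% in subcluster 4 and at 57.1% and 13% in subcluster 5. The difference between the subclusters was not tested, because each library gives a single value per subcluster.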

How the results depend on the processing

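No paired analysis was possible because 1 library stood for each genotype. With 32 cells labelled depleted, a difference under 25 points rests on fewer than 8 cells, and genes at 100% in both libraries could not show a difference. Raising the limit to 40 points left 10 genes higher and 9 lower. On the scale of a log2 odds ratio of 2, 127 genes were higher and 541 lower, and of the 541, 496 were in at least 90% of control cells and 503 differed by less than 25 points; 394 of them were at 100% in both libraries, which pass that limit only because part of a cell is added to each count. A filter on the share over all cells left 65 genes higher and 73 lower; the other alternatives gave 92 to 96 higher and 66 to 80 lower, and the inferred cell numbers stayed at 32 and 145. That filter keeps fewer genes and leans on the control library, which holds 145 of the 177 cells. It moved list medians to 4.1 points for matrifibrocyte genes, 0 for cell cycle genes and -17.6 for pericyte and smooth muscle markers. For the CCN family it gave -45.9 points and for erythroid markers -35.5, which are the values of Ccn3 alone and Hbb-bs alone. Centred on the median difference, 186 of the 191 named genes kept their direction, among them all 44 past 25 points, and the other 5 had a difference of 0.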

Other observations

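Some genes of the circadian clock, listed only after their values were seen, were more widely detected in the library labelled depleted. Besides Nr1d1 (56.2% and 18.6%, labelled depleted and control), its partner Nr1d2 was at 46.9% and 21.4%, the period gene Per1 at 46.9% and 20.7%, the output factor Dbp at 25% and 9.7%, and Bhlhe40 at 59.4% and 35.9%. Their activators were level, with Arntl at 31.2% and 28.3% and Clock at 50% and 49.0%. Over all 16 genes, 11 were higher and 4 lower, with a median of 3.0 points; 8 were described, 4 of them through the library labelled depleted alone. The time of day of each collection is not given in the sources used here and cannot be told apart from genotype.

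MHC class II genes, also listed after their values were seen, were lower in the library labelled depleted. Cd74, the invariant chain, was at 62.5% and 97.2%, H2-Aa at 50% and 82.1%, H2-Ab1 at 65.6% and 94.5% and H2-Eb1 at 59.4% and 79.3%. All 8 genes in the table were lower, with a median of -20.2 points, beside the lower macrophage genes given above, and the part of those cells in it was not tested.

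The IFI200 family and the D cyclins were also listed after their values were seen. Of 11 IFI200 genes in the table, 3 were higher and 8 lower, with a median of -2.9 points. Beside Ifi202b, Ifi203 was at 87.5% and 79.3%, Ifi204 at 87.5% and 93.8%, Ifi211 at 75% and 77.9%, and Mndal at 93.8% and 84.8%. Among the D cyclins, which drive entry into the cell cycle, Ccnd1, which passed the detection filter through the library labelled depleted alone, was at 53.1% and 17.2% while Ccnd2 was at 65.6% and 66.9% and Ccnd3 at 87.5% and 86.2%.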
